A study of Arabidopsis thaliana with 4 samples.

Results

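The 9 genes described here bring flowering signals together at the Arabidopsis shoot apex or give a new meristem its floral identity. They are FT (AT1G65480), FD (AT4G35900), FLC (AT5G10140), SVP (AT2G22540), SOC1 (AT2G45660), AGL24 (AT4G24540), FUL (AT5G60910), LFY (AT5G61850) and AP1 (AT1G69120). They were chosen by their locus codes, with earlier results of these data known. All 9 were found among the 32356 genes with values in the deposited table. Poly(A) RNA came from shoot apices of Col-0 plants, dissected free of leaves, hypocotyl and roots. The 4 groups were nse4a-2 mutants in zebularine (nse4a-2_zeb), nse4a-2 mutants in control medium (nse4a-2_ctrl), wild-type plants in zebularine (WT_zeb) and wild-type plants in control medium (WT_ctrl). Each group had 2 biological replicates, which makes 8 libraries. Seedlings grew for 9 days under a long-day cycle and then spent 24 h in liquid half-strength MS medium with 20 µM zebularine or without it, so plants of all 4 groups were 10 days old at harvest.

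The allele nse4a-2 lies in NSE4A, the gene for a subunit of SMC5/6, a ring-shaped protein complex on chromosomes with a part in DNA repair. Zebularine, an analogue of cytidine, is built into DNA and binds DNA methyltransferases covalently. Mutant and wild-type plants were handled alike, and the labels name no transgene and do not describe the lesion of nse4a-2. NSE4A itself had 18.5 and 21.1 CPM (counts relative to the library total, adjusted by TMM) in nse4a-2_zeb, 8.40 and 7.79 CPM in nse4a-2_ctrl, 10.5 and 12.9 CPM in WT_zeb, and 10.7 and 9.23 CPM in WT_ctrl. Without the position of the lesion these levels do not check the genotype labels. Total counts ran from 15360494 to 19811948 per library, and 3 counts, the upper limit that a count of 0 allows, correspond to 0.151 to 0.195 CPM. Replicates of a group correlated at r of 0.994 to 0.996 across genes, which are not independent replicates.

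As background, day length is read in leaves, where the protein CO switches on FT, and FT protein travels through the phloem to the apex. There it binds the bZIP factor FD, and together they switch on SOC1, FUL and AP1. The MADS-domain repressors FLC and SVP hold FT and SOC1 down, a block that vernalization and the autonomous pathway relieve by lowering FLC. SOC1 and AGL24 proteins then raise LFY, and LFY and AP1 turn new lateral meristems into flowers.

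SOC1 is the gene whose expression differed most clearly between groups, and SVP is the most abundant of the 9 genes and encodes a MADS-domain protein known to bind SOC1. The CArG box, the DNA sequence that MADS-domain proteins bind, is a stretch of A and T bases between CC and GG. The 300 bases before the annotated start of SOC1 and of SVP are printed here because they were the only such windows among the 9 genes with a match to a relaxed form of it. That form also allows a T after the first C and an A before the last G, reads the same on both strands, and was chosen after the windows had been searched. The sequences are from RefSeq, assembly TAIR10.1, read 5′ to 3′ on the strand of the gene, and capitals mark the matches.
SOC1, minus strand, chr2:18811126-18811425: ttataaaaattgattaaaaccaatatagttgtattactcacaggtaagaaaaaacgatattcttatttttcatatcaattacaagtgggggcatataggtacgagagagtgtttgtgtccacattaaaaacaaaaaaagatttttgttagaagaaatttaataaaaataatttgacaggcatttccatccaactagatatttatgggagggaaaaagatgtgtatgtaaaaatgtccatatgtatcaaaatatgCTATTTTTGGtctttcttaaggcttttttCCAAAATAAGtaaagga
SVP, plus strand, chr2:9579347-9579646: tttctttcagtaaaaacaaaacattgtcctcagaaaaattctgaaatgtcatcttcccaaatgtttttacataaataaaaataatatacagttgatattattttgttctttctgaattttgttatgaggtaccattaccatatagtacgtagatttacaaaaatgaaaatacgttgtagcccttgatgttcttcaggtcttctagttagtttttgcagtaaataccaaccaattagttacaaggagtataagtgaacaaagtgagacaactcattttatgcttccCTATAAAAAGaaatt

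The SOC1 window held 2 matches that do not overlap, CTATTTTTGG at bases −46 to −37 and CCAAAATAAG at bases −17 to −8, counted back from the annotated start. The SVP window held CTATAAAAAG at bases −15 to −6. Of 27443 windows of the same length before Arabidopsis genes, 18.1% held a relaxed match and 2.92% held the strict CArG box, which none of the 9 windows held. A match is a description of these letters and not evidence of binding.

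The 9 genes spanned a wide range of expression in these apices. On the length-normalized scale of the deposited FPKM, SVP was highest, with a lowest, median and highest value over the 8 libraries of 38.51, 44.34 and 49.06 FPKM. AGL24 followed at 25.03, 33.035 and 43.71 FPKM, and SOC1 at 7.55, 12.615 and 27.46 FPKM. The ranges of SVP and AGL24 overlapped, as did those of AGL24 and SOC1. FD (2.97 to 6.61 FPKM) and FLC (3.94 to 8.34 FPKM) lay in the same range as each other. LFY (0.82 to 1.97 FPKM) and FUL (0.27 to 1.64 FPKM) also overlapped each other. AP1 and FT, the flower identity factor and the leaf-made signal, were listed at 0 FPKM in all but 1 library each. Of the 9 genes, 7 therefore passed the filter on low counts and were tested.

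**Figure D1:**
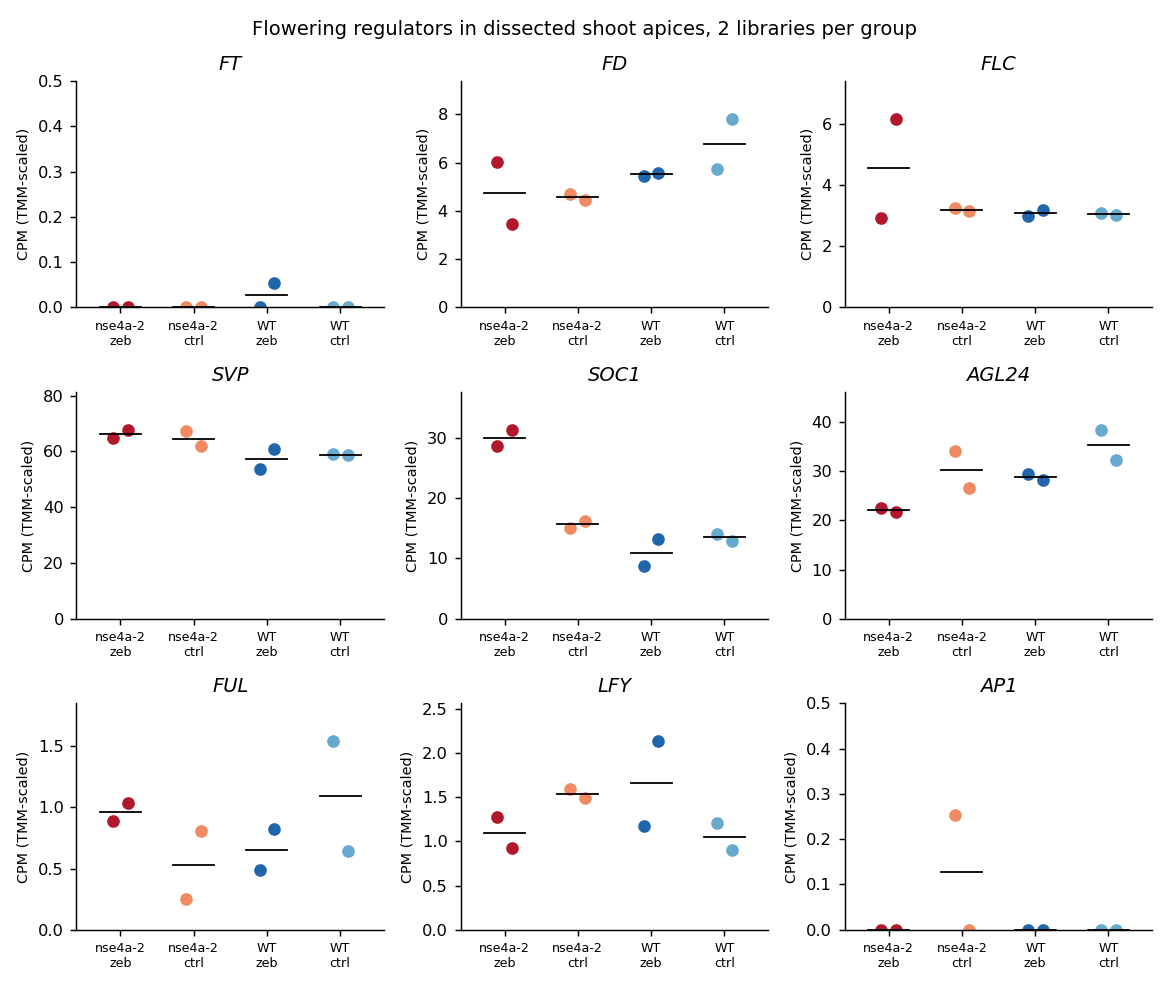
Expression (CPM, scaled by TMM) of the 9 flowering genes in each library, with nse4a-2_zeb, nse4a-2_ctrl, WT_zeb and WT_ctrl from left to right in every panel. Points are single libraries, bars are means of 2, and each panel has its own axis. Both nse4a-2_zeb libraries of SOC1, at 28.7 and 31.3 CPM, lie above the other 6, which reach 16.3 CPM at most.

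FT, the mobile flowering signal, had 1 read in all, in WT_zeb replicate 2 (0.0547 CPM), and 0 reads in the other 7 libraries. Its close relative TSF had 9 reads over the 8 libraries, and TFL1, the FT-like protein that delays flowering, passed the filter. Of the 5 genes of the FT/TFL1 family and its bZIP partners beyond FT and FD, 3 were tested and 0 were called in any comparison by edgeR or DESeq2, that is, had an adjusted p below 0.05 over all genes tested, with 0 at an unadjusted p below 0.05. The smallest p in that list was for TFL1 under zebularine in wild type, with a log2 change of 0.32 ± 0.38 (SE) and an adjusted p of 0.783.

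FD, the bZIP factor that brings FT to DNA, had 6.03 and 3.46 CPM in nse4a-2_zeb, 4.71 and 4.45 CPM in nse4a-2_ctrl, 5.44 and 5.58 CPM in WT_zeb, and 5.73 and 7.82 CPM in WT_ctrl. Both nse4a-2_ctrl libraries were below both WT_ctrl libraries, while nse4a-2_zeb held the lowest library of the 8 and, as its other library, the second highest. The difference between nse4a-2_ctrl and WT_ctrl was −0.56 ± 0.28 (log2, SE), with a 95% interval of −1.19 to 0.07 and an adjusted p of 0.332 by edgeR's quasi-likelihood test.

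FLC, the MADS-domain repressor that vernalization silences, had 2.92 and 6.17 CPM in nse4a-2_zeb, 3.24 and 3.15 CPM in nse4a-2_ctrl, 2.99 and 3.17 CPM in WT_zeb, and 3.08 and 3.01 CPM in WT_ctrl. These values rest on 46 and 107 reads in nse4a-2_zeb and on 47 to 61 reads in each other library. Only nse4a-2_zeb replicate 2 stood away from the other 7 libraries, and its partner was the lowest of the 8. The FLC change under zebularine in nse4a-2 was 0.51 ± 0.34 (log2, SE; 95% interval −0.25 to 1.27, adjusted p = 0.355 by edgeR) and went to −0.13 without nse4a-2_zeb replicate 2. FLC is also transcribed in antisense, and since the strand kept by the libraries is not stated, reads of either strand cannot be told apart.

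SVP, which encodes the repressor that acts with FLC and in the response to temperature, had 64.7 and 67.8 CPM in nse4a-2_zeb, 67.3 and 61.9 CPM in nse4a-2_ctrl, 53.6 and 60.8 CPM in WT_zeb, and 59.1 and 58.6 CPM in WT_ctrl. Relative to its mean it varied least of the 7 tested genes. Every mutant library was above every wild-type library, with no call. SVP in nse4a-2_zeb was 0.21 ± 0.11 log2 units above WT_zeb (SE, 95% interval −0.03 to 0.46, adjusted p = 0.199), and in nse4a-2_ctrl 0.13 ± 0.11 above WT_ctrl (SE, adjusted p = 0.580). Under zebularine its intervals were −0.21 to 0.28 in nse4a-2 and −0.29 to 0.21 in wild type.

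SOC1, the MADS-domain integrator that promotes flowering downstream of FT and is held down by FLC and SVP, lies at chr2:18807505-18811125 on the minus strand (TAIR10.1). It had 28.7 and 31.3 CPM in nse4a-2_zeb, 15.0 and 16.3 CPM in nse4a-2_ctrl, 8.68 and 13.1 CPM in WT_zeb, and 14 and 12.9 CPM in WT_ctrl. The highest value therefore came from mutant apices in zebularine, and the lowest from a wild-type library in zebularine. Group means were 30.01 ± 1.84 CPM in nse4a-2_zeb, 15.6 ± 0.890 CPM in nse4a-2_ctrl, 10.9 ± 3.15 CPM in WT_zeb and 13.5 ± 0.780 CPM in WT_ctrl (SD, n = 2 each). In bulk tissue, more cells that express SOC1 and more SOC1 RNA per cell cannot be told apart.

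SOC1 rose under zebularine in the mutant. In nse4a-2_zeb it was 1.92-fold the level of nse4a-2_ctrl, with a 95% interval of 1.44 to 2.55, a log2 change of 0.94 ± 0.18 (SE) and an adjusted p of 0.00978 by edgeR's quasi-likelihood test. It was the only one of the 7 tested members called in that comparison, in which 14.7% of the 19682 genes tested were called, 8.94% higher and 5.74% lower. A log2 change at least as high was found for 7.34% of all genes tested. The authors' deposited table gives a log2 change of 0.95 with an adjusted p of 0.001 for SOC1 in the same comparison and calls no other member there. The call was lost without nse4a-2_ctrl replicate 1 (0.87, adjusted p = 0.0667) and without nse4a-2_zeb replicate 2 (0.88, adjusted p = 0.0841).

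In wild type, SOC1 did not change detectably under zebularine. The log2 change between WT_zeb and WT_ctrl was −0.31 ± 0.19 (SE), with an interval of −0.74 to 0.11 and an adjusted p of 0.493, and the higher WT_zeb library lay between the WT_ctrl ones. That change was −0.04 without WT_zeb replicate 1 and −0.63 without WT_zeb replicate 2, with no call in either. None of the 7 tested members was called by edgeR in that comparison, 0 had an unadjusted p below 0.05, and 0 were called under DESeq2 or any other of the 13 alternatives. Among all genes 2.30% were called, 1.66% higher and 0.635% lower.

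The largest SOC1 difference lay between the genotypes in zebularine. SOC1 in nse4a-2_zeb was 2.76-fold the level of WT_zeb (95% interval 2.06 to 3.69), a log2 difference of 1.46 ± 0.19 (SE) with an adjusted p of 0.000755 by edgeR. It was called under each of the 13 alternatives, where the log2 difference ran from 1.19 without WT_zeb replicate 1 to 1.80 without WT_zeb replicate 2. Again 1 of 7 members was called, in a comparison with 22.0% of all genes called, 12.9% higher and 9.09% lower. A log2 difference at least as high was found for 5.06% of all genes. In control medium SOC1 differed between nse4a-2_ctrl and WT_ctrl by 0.21 ± 0.19 (log2, SE; interval −0.21 to 0.63, adjusted p = 0.612). There 0 members were called by edgeR, 0 had an unadjusted p below 0.05 and 0 were called under the 13 alternatives, DESeq2 included, against 3.13% of all genes, 2.28% higher and 0.854% lower.

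The test of whether zebularine acted differently on SOC1 in the mutant and in wild type fell just short of the threshold. The response in nse4a-2 exceeded that in wild type by 1.25 ± 0.26 log2 units (SE, 95% interval 0.66 to 1.84), with an unadjusted p of 0.000898 and an adjusted p of 0.0683 by edgeR. For this difference 0 of 7 members were called and 1, SOC1, had an unadjusted p below 0.05. Of all genes 0.772% were called, 0.549% with a higher and 0.224% with a lower response in nse4a-2. SOC1 was called with DESeq2 (adjusted p = 0.00910), without the filter on low counts (0.0125), with the replicate block (0.0329) and without WT_zeb replicate 2 (1.59, adjusted p = 0.0142). The 5 comparisons share libraries, the nse4a-2_zeb ones among them, and are not independent of one another.

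**Figure D2:**
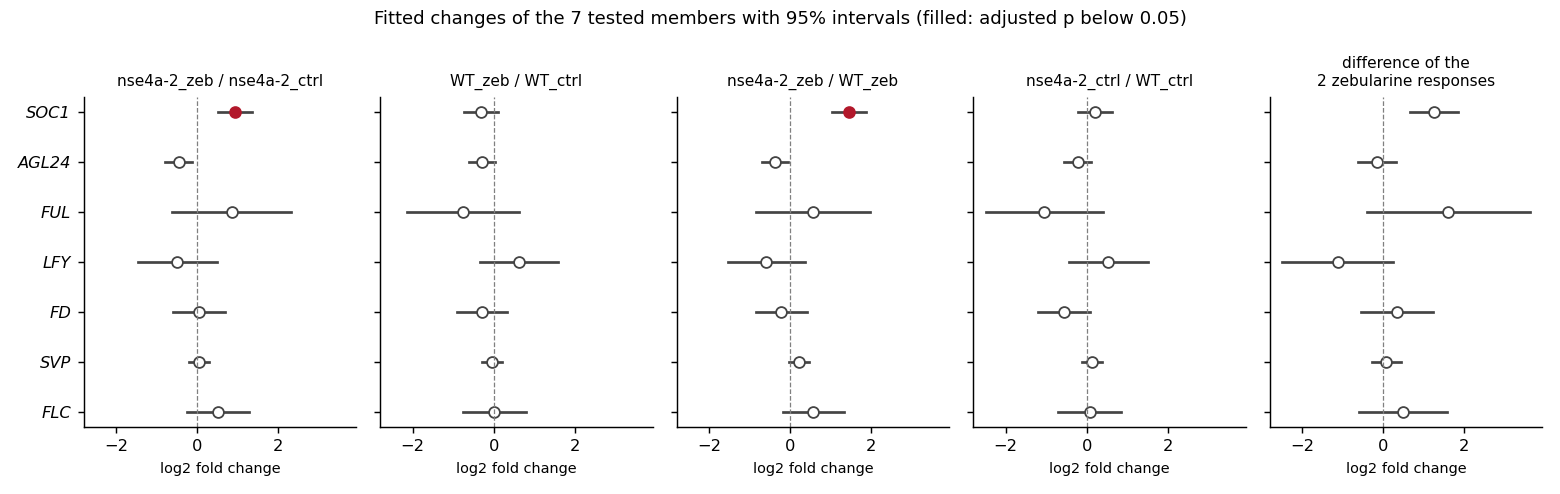
Fitted log2 fold changes of the 7 tested flowering genes in 5 comparisons, with 95% intervals as lines. Filled points have an adjusted p below 0.05, and they are SOC1 at 0.94 for nse4a-2_zeb over nse4a-2_ctrl and SOC1 at 1.46 for nse4a-2_zeb over WT_zeb.

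AGL24, a close relative of SVP that promotes flowering together with SOC1, had 22.6 and 21.7 CPM in nse4a-2_zeb, 34.1 and 26.5 CPM in nse4a-2_ctrl, 29.4 and 28.2 CPM in WT_zeb, and 38.4 and 32.4 CPM in WT_ctrl. Its lowest values were in the group with the highest SOC1. The AGL24 log2 change under zebularine was −0.45 ± 0.15 in nse4a-2 (SE, 95% interval −0.78 to −0.12, adjusted p = 0.0704) and −0.30 ± 0.14 in wild type (SE, adjusted p = 0.359). Between nse4a-2_zeb and WT_zeb it was −0.38 ± 0.15 (SE, 95% interval −0.71 to −0.05, adjusted p = 0.0936). None of these passed the threshold. For zebularine in nse4a-2, AGL24 passed with the replicate block (−0.44, adjusted p = 0.0433) and without nse4a-2_ctrl replicate 2 (−0.62, adjusted p = 0.0331), and it was −0.27 without nse4a-2_ctrl replicate 1 (adjusted p = 0.304).

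Ratios of reads within a library, which do not depend on scaling between libraries, were highest in nse4a-2_zeb for SOC1 against SVP and against AGL24, but overlapped nse4a-2_ctrl against FLC. Per SVP read there were 0.444 and 0.462 SOC1 reads in nse4a-2_zeb and 0.223 and 0.263 SOC1 reads in nse4a-2_ctrl. In wild type these ratios were 0.162 and 0.216 in WT_zeb and 0.238 and 0.221 in WT_ctrl. SOC1 reads per AGL24 read were 1.27 and 1.44 in nse4a-2_zeb, 0.440 and 0.613 in nse4a-2_ctrl, 0.295 and 0.465 for WT_zeb, and 0.365 and 0.400 for WT_ctrl. SOC1 reads per FLC read were 9.83 and 5.07 in nse4a-2_zeb, 4.63 and 5.16 in nse4a-2_ctrl, and 2.90 to 4.55 in the wild-type libraries, so that 1 nse4a-2_zeb library was below a nse4a-2_ctrl one. SOC1 reads outnumbered AGL24 reads in both nse4a-2_zeb libraries and in none of the other 6. On the length-normalized scale SOC1 made up 23.4 ± 0.625% of the summed FPKM of the 9 genes in nse4a-2_zeb, 13 ± 1.74% in nse4a-2_ctrl, 9.93 ± 2.18% in WT_zeb and 11 ± 0.0678% in WT_ctrl (SD, n = 2 each).

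**Figure D3:**
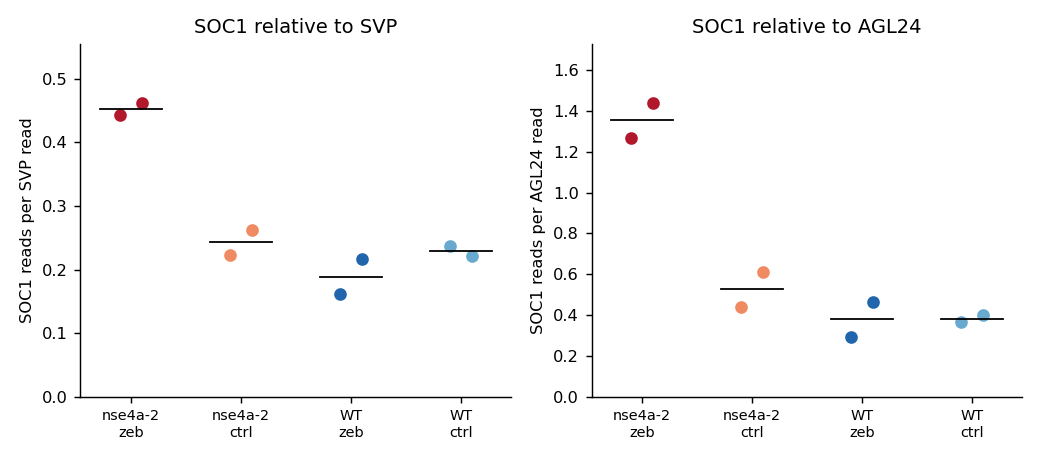
SOC1 reads per SVP read (left) and per AGL24 read (right) in each library, with nse4a-2_zeb, nse4a-2_ctrl, WT_zeb and WT_ctrl from left to right. Points are single libraries and bars are means of 2. Both nse4a-2_zeb libraries, at 0.444 and 0.462 SOC1 reads per SVP read, lie above all others, which reach 0.263.

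FUL, the MADS-domain factor that acts beside SOC1 in the transition of the meristem, was near the limit of detection. It had 0.889 and 1.04 CPM in nse4a-2_zeb, 0.254 and 0.804 CPM in nse4a-2_ctrl, 0.490 and 0.821 CPM in WT_zeb, and 1.54 and 0.641 CPM in WT_ctrl, from 4 to 28 reads a library. Both nse4a-2_zeb libraries were above both nse4a-2_ctrl and both WT_zeb libraries, but replicates of the other groups differed widely. The FUL change under zebularine in nse4a-2 was 0.85 ± 0.66 (log2, SE), with an interval of −0.62 to 2.33 and an adjusted p of 0.432 by edgeR. It was 0.25 without nse4a-2_ctrl replicate 1 and 1.89 without nse4a-2_ctrl replicate 2. A change of the size seen in SOC1 lies within that interval, so neither such a change nor its absence could be shown.

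LFY, which encodes the factor that commits a meristem to making a flower, had 1.27 and 0.923 CPM in nse4a-2_zeb, 1.59 and 1.48 CPM in nse4a-2_ctrl, 1.18 and 2.13 CPM in WT_zeb, and 1.21 and 0.897 CPM in WT_ctrl. Both nse4a-2_zeb libraries were below both nse4a-2_ctrl libraries. The log2 change was −0.49 ± 0.44 (SE, 95% interval −1.47 to 0.49, adjusted p = 0.502), and in wild type it was 0.63 ± 0.43 (SE, adjusted p = 0.550). AP1, the floral identity factor that marks young flower buds, had 4 reads, all in nse4a-2_ctrl replicate 1 (0.254 CPM), and 0 reads in the other 7 libraries. Of the 11 other genes of floral organ and meristem identity, 6 missed the filter, with 7 reads of AP3, 10 of PI, 8 of AG, 6 of SEP1, 4 of SEP2 and 37 of AGL6 over all 8 libraries. Of the 5 that passed, SEP4 had 1.53 to 3.43 CPM and LMI1 1.97 to 4.66 CPM. The others were scarcer, with 0.288 to 1.16 CPM for UFO, 0.191 to 1.27 CPM for CAL and 0.147 to 0.928 CPM for SEP3. CAL and SEP3 thus reached down to the limit of detection.

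Groups without overlap were common among all genes, against which the counts of the 7 tested members are read. For zebularine in nse4a-2, 2 members had both treated libraries higher and 2 had both lower, against 28.8% and 27.7% of all genes and 56.5% either way. For zebularine in wild type 0 were higher and 2, AGL24 and FD, lower, against 23.7% and 24.8%, and 48.6% either way. Between genotypes in zebularine 3 were higher in the mutant and 1 lower, against 31.0% and 32.3%, and 63.3% either way. In control medium 4 were higher in the mutant and 1 lower, against 24.6% and 24.8%, and 49.4% either way. The median log2 change of the 7 members was 0.05 for zebularine in nse4a-2, −0.29 in wild type, 0.21 between genotypes in zebularine, 0.07 in control medium and 0.34 for the difference of responses. Over all genes tested these medians lay between −0.022 and −0.00065.

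The genes whose pattern across the 8 libraries was most like that of SOC1, by Pearson's r of log2 CPM over 18367 genes, were XBAT31 (r = 0.991), AT5G61530 (r = 0.991) and OFP2 (r = 0.989). OFP2 had 2.67 and 2.48 CPM in nse4a-2_zeb against 0.343 to 0.928 CPM in the other 6 libraries. The closest to AGL24 were ROP2 (r = 0.990), AT1G31950 (r = 0.983) and GDU4 (r = 0.982), and to SVP AT3G57770 (r = 0.976), MBP1 (r = 0.970) and AT3G47000 (r = 0.967). For FLC they were ATDAD1, AT2G19380 and ESP, with r of 0.946, 0.935 and 0.931. Each was highest in nse4a-2_zeb replicate 2, the only library in which FLC stood out. ESP had 33.7 CPM there and 2.60 CPM in nse4a-2_zeb replicate 1. The correlations named are the highest of many over 8 libraries that share 4 groups, and are given as a description.

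The wider flowering network was described with 11 lists, chosen with earlier results of these data known, so their called shares are a description. They hold 92 genes, of which 78 were tested. By edgeR's quasi-likelihood test 3 rose and 2 fell under zebularine in nse4a-2, and 2 rose and 0 fell under it in wild type. Between the genotypes 5 were higher and 5 lower in the mutant in zebularine, and 3 were higher and 0 lower in control medium. These calls are 6.41%, 2.56%, 12.8% and 3.85% of the 78 genes in the 4 comparisons. Over all genes tested 14.7%, 2.30%, 22.0% and 3.13% were called. For the difference of responses edgeR called 0 of the 78 genes, beside 0.772% of all genes tested. An unadjusted p below 0.05 was found for 14, a count without a share over all genes to read it against. DESeq2 called 2, and it also called more of all genes than edgeR did. The median log2 change of the 78 genes was −0.040 for zebularine in nse4a-2 and 0.036 between genotypes in zebularine. Of these 20 calls, 6 held without any 1 library, and the rest are given with the libraries they depend on.

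Among the 12 photoperiod genes and FT regulators, the calls included genes that set the daily rhythm of CO, CO itself and the FT repressor TEM1. Of the 12, 25% were called for zebularine in nse4a-2 and 16.7% in wild type, against 14.7% and 2.30% of all genes. Between genotypes 25% were called in zebularine and 8.33% in control medium, against 22.0% and 3.13% of all genes. With the list chosen when earlier results of these data were known, these shares are given as a description. GI, a clock protein that promotes CO transcription, had 247 and 233 CPM in nse4a-2_zeb, 81.4 and 114 CPM in nse4a-2_ctrl, 34.7 and 79.5 CPM in WT_zeb, and 91.8 and 103 CPM in WT_ctrl. GI rose by 1.29 ± 0.31 (log2, SE, adjusted p = 0.0234) under zebularine in nse4a-2 and was 2.07 ± 0.32 higher in nse4a-2_zeb than in WT_zeb (SE, adjusted p = 0.00193), a difference that ran from 1.59 without WT_zeb replicate 1 to 2.80 without WT_zeb replicate 2 and kept its call without any 1 library. The call under zebularine was lost without nse4a-2_ctrl replicate 1 or without either nse4a-2_zeb library (adjusted p 0.0761 to 0.149). CO, the activator of FT, had 2.1 and 1.96 CPM in nse4a-2_zeb against 6.81 and 7.18 CPM in nse4a-2_ctrl. CO thus fell by 1.78 ± 0.33 (log2, SE, adjusted p = 0.00724, and 0.0705 without nse4a-2_zeb replicate 2), opposite in sign to GI. CO had 3.33 and 2.95 CPM in WT_zeb and 2.09 and 4.16 CPM in WT_ctrl, so the high group was nse4a-2_ctrl.

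FKF1, the light sensor that partners GI, had 118 and 141 CPM in nse4a-2_zeb against 2.01 and 32.2 CPM in WT_zeb, a log2 difference of 2.94 ± 0.80 (SE, adjusted p = 0.0278). FKF1 had 93.7 and 55.1 CPM in nse4a-2_ctrl and 45.3 and 69.1 CPM in WT_ctrl. Both control groups thus lay between nse4a-2_zeb, the high group, and WT_zeb, the low group. Under zebularine the authors' deposited table calls FKF1 higher in nse4a-2 (log2 change 0.81) and lower in wild type (−1.72), and edgeR called neither. The WT_zeb replicates of FKF1 differed widely. The FKF1 difference ran from 2.01 without WT_zeb replicate 1 to 6.02 without WT_zeb replicate 2, and its call was lost without either nse4a-2_zeb library (adjusted p 0.0606 to 0.102) and with DESeq2. TEM1 rose by 1.26 ± 0.33 (log2, SE, adjusted p = 0.0307) under zebularine in nse4a-2, with 92.3 and 87.1 CPM in nse4a-2_zeb against 38.4 and 36.4 CPM in nse4a-2_ctrl. In wild type TEM1 had 137 and 54.8 CPM in WT_zeb and 65.6 and 75.1 CPM in WT_ctrl, so nse4a-2_ctrl was the low group and nse4a-2_zeb lay within the range of WT_zeb. TEM1 lost its call without any 1 of the 4 mutant libraries (adjusted p 0.0936 to 0.133), and with limma on FPKM. The hour of harvest is not given, so the place of each library in the daily cycle, on which GI, FKF1 and CO transcripts depend, was not tested.

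Outside the naming rule, and chosen after their values were seen, the CO repressors CDF1 and CDF3 rose under zebularine in wild type. CDF1 had 9.41 and 10.9 CPM in WT_zeb against 4.79 and 4.29 CPM in WT_ctrl (log2 change 1.16 ± 0.22, SE, adjusted p = 0.0298), and CDF3 had 34.0 and 27.7 CPM against 14.7 and 17.6 CPM (0.94 ± 0.15, SE, adjusted p = 0.0154). CDF1 was lower in nse4a-2_zeb than in WT_zeb (−0.78 ± 0.21, SE, adjusted p = 0.0284), and CDF3 was higher in nse4a-2_ctrl than in WT_ctrl (0.83 ± 0.15, SE, adjusted p = 0.0201). For zebularine in wild type, CDF1 lost its call without any 1 of the 4 libraries (adjusted p 0.0614 to 0.187) and CDF3 without WT_ctrl replicate 1 or WT_zeb replicate 1 (0.0623 to 0.155). Between genotypes, CDF1 lost its call without either WT_zeb library or nse4a-2_zeb replicate 1 (0.0557 to 0.165), and CDF3 without WT_ctrl replicate 1 or either nse4a-2_ctrl library (0.0673 to 0.154).

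The 6 AP2-type repressors hold FT and SOC1 down in young plants until a microRNA relieves them. Between genotypes in zebularine 1 of the 6, TOE1, was called, where 22.0% of all genes were. Between genotypes in control medium 2, TOE1 and SMZ, were called, where 3.13% of all genes were. Under zebularine in nse4a-2 TOE1 was called higher and SMZ lower, 33.3% of the list beside 14.7% of all genes. TOE1 had 231 and 246 CPM in nse4a-2_zeb, 164 and 167 CPM in nse4a-2_ctrl, 92.9 and 114 CPM in WT_zeb, and 69.0 and 82.3 CPM in WT_ctrl. Every mutant library was above every wild-type library. TOE1 was higher in the mutant by 1.2 ± 0.14 (log2, SE, adjusted p = 0.000451) in zebularine and by 1.13 ± 0.14 (adjusted p = 0.00441) in control medium, and both calls held without any 1 library. It also rose by 0.53 ± 0.14 (SE, adjusted p = 0.0311) under zebularine in nse4a-2, a call lost without any 1 of the 4 libraries compared (0.0750 to 0.189).

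SMZ, another repressor of this family, had 5.59 and 7.03 CPM in nse4a-2_zeb, 12 and 14.5 CPM in nse4a-2_ctrl, 6.23 and 6.79 CPM in WT_zeb, and 6.11 and 6.28 CPM in WT_ctrl. The nse4a-2_ctrl libraries were the highest of the 8. It was 1.10 ± 0.19 higher in nse4a-2_ctrl than in WT_ctrl (log2, SE, adjusted p = 0.0175) and fell by 1.07 ± 0.19 under zebularine in nse4a-2 (adjusted p = 0.00623). The fall held without any 1 library, and the genotype call was lost without either WT_ctrl library or nse4a-2_ctrl replicate 2 (0.0677 to 0.129). Of the 6 genes of this list, the other 4 were called in no comparison.

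The lists around FLC are short beside shares over all genes of 14.7%, 2.30%, 22.0% and 3.13% called in the 4 comparisons, and their counts are given as a description. Of the 14 FLC activators 0 were called by edgeR, with up to 3 per comparison at an unadjusted p below 0.05 and 1 called by DESeq2 between genotypes in zebularine. Their smallest p was for PIE1 between genotypes in zebularine (0.44 ± 0.14, log2, SE, adjusted p = 0.0571). Of the 5 genes of the FLC clade 3 were tested and 0 were called by edgeR or DESeq2, with up to 2 per comparison at an unadjusted p below 0.05. The smallest p was that of MAF1 for the difference of responses (0.65 ± 0.22, SE, adjusted p = 0.218). Of the 8 genes of the autonomous pathway, which keeps FLC low, FCA alone was called by edgeR. DESeq2 called 2 between genotypes in zebularine, FCA and FPA (0.45 ± 0.15 by edgeR, SE, adjusted p = 0.0604), which was named after its values were seen. FCA, an RNA-binding protein, had 49.7 and 47.7 CPM in nse4a-2_zeb against 32.2 and 29 CPM in WT_zeb (0.67 ± 0.11, SE, adjusted p = 0.00221), and the call held without any 1 library.

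Of the 11 vernalization and Polycomb genes, 2, VIN3 and VEL1, were called between genotypes in zebularine, a share of 18.2% beside 22.0% of all genes. VIN3 encodes a PHD-domain protein that prolonged cold normally induces and that helps silence FLC. It had 31 and 63 reads in nse4a-2_zeb, 16 and 9 reads in nse4a-2_ctrl, 0 and 3 reads in WT_zeb, and 1 and 0 reads in WT_ctrl. VIN3 reads were thus found mainly in the mutant in both media, while FLC had no call in either. Per total reads the VIN3 ratio of nse4a-2_zeb to WT_zeb was 36.4 (95% exact counting interval 12.1 to 180), and that of nse4a-2_ctrl to WT_ctrl was 26.5 (4.35 to 1090). These intervals cover counting error only, and VIN3 passed the filter on low counts through the mutant libraries, where it is high. By edgeR the first comparison had a log2 difference of 5.04 with an adjusted p of 0.00282, with the call kept without any 1 library and a log2 difference of 4.03 without WT_zeb replicate 1 and 8.60 without WT_zeb replicate 2. The second had an adjusted p of 0.0775. VEL1, a relative of VIN3, was lower in nse4a-2_zeb than in WT_zeb by a small margin (−0.38 ± 0.12, log2, SE, adjusted p = 0.0460), a call lost in 6 of 8 fits that left out 1 library (0.0901 to 0.182, kept only without either nse4a-2_ctrl library), with DESeq2, with the other size factors, without the low-count filter and with limma on FPKM.

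The remaining 3 calls between genotypes in zebularine went to genes that were lower in nse4a-2_zeb than in WT_zeb. SPL15, an age-pathway factor that acts with SOC1 in the meristem, had 1.90 and 2.31 CPM in nse4a-2_zeb against 7.50 and 4.65 CPM in WT_zeb (log2 difference −1.53 ± 0.31, SE, adjusted p = 0.00769). SEP4, a MADS-domain factor of floral meristems, had 1.59 and 1.61 CPM in nse4a-2_zeb against 3.43 and 3.28 CPM in WT_zeb (−1.07 ± 0.31, SE, adjusted p = 0.0343). GA20OX2, a gibberellin synthesis enzyme, had 1.78 and 1.15 CPM in nse4a-2_zeb against 3.63 and 4.05 CPM in WT_zeb (−1.39 ± 0.33, SE, adjusted p = 0.0155). In control medium SPL15 had 4.96 and 3.65 CPM in nse4a-2_ctrl and 5.62 and 7.11 CPM in WT_ctrl. SEP4 had 1.53 and 2.17 CPM in nse4a-2_ctrl and 1.93 and 2.05 CPM in WT_ctrl. GA20OX2 had 1.27 and 1.73 CPM in nse4a-2_ctrl and 2.04 and 1.99 CPM in WT_ctrl. For SEP4 and GA20OX2 the high group was thus WT_zeb, and for SPL15 the low group was nse4a-2_zeb. All 3 genes were of low expression. Their nse4a-2_zeb and WT_zeb libraries did not overlap, as was so for 63.3% of all genes tested in this comparison. SPL15 lost its call without WT_zeb replicate 1 or nse4a-2_zeb replicate 1 (0.0522 to 0.0534), GA20OX2 without WT_zeb replicate 2 or nse4a-2_zeb replicate 2 (0.0614 to 0.133), and SEP4 in 6 of 8 fits that left out 1 library (0.0562 to 0.154, kept only without either nse4a-2_ctrl library) and with DESeq2. Each list had 1 call, among 10 SPL genes, 11 floral identity genes of which 5 were tested, and 5 gibberellin genes. Of all genes 22.0% were called in this comparison, 9.09% of them lower in nse4a-2_zeb as a share of all genes. Of the 5 MADS genes related to SOC1 only AGL19 was tested (1.45 ± 0.50 in nse4a-2_zeb over WT_zeb, SE, adjusted p = 0.0657).

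**Figure D4:**
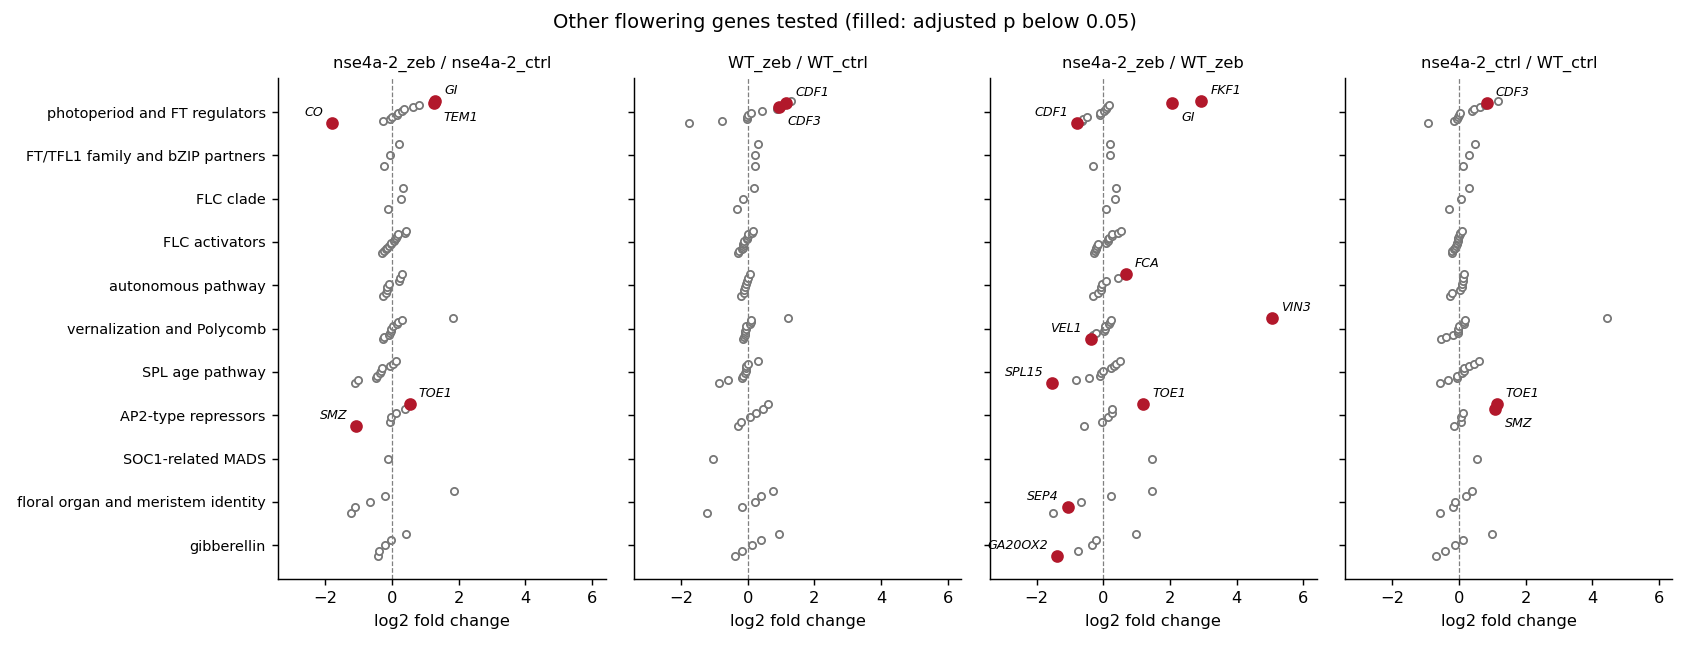
Fitted log2 fold changes of the 78 other flowering genes tested, by list, in 4 comparisons. Each point is a gene, and filled, named points have an adjusted p below 0.05. The farthest is VIN3 at 5.04 for nse4a-2_zeb over WT_zeb (4.03 to 8.60 when 1 library is left out). VIN3 passed the filter on low counts through the mutant libraries, where it is high. TOE1 is filled at 0.53, 1.2 and 1.13 in the 3 comparisons that involve the mutant.

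Markers of tissues show what the apices held beside these genes. Of 10 shoot meristem markers, STM had 17.5 and 13.6 CPM in nse4a-2_zeb, 21.3 and 19.4 CPM in nse4a-2_ctrl, 19.4 and 19.8 CPM in WT_zeb, and 17.3 and 20.3 CPM in WT_ctrl, while WUS reached 0.192 CPM at most. The 10 markers summed to 142 and 136 CPM in nse4a-2_zeb, 120 and 139 CPM in nse4a-2_ctrl, 118 and 120 CPM in WT_zeb, and 107 and 107 CPM in WT_ctrl. The markers did not move together. Of the 10, 8 were tested and 1, KNAT6, was called, against 14.7% of all genes for zebularine in nse4a-2, 22.0% between genotypes in zebularine and 3.13% in control medium. CUC3, a boundary gene, had log2 differences of −1.26 ± 0.42 for zebularine in nse4a-2 (SE, adjusted p = 0.0772) and −1.17 ± 0.42 between genotypes in zebularine (SE, adjusted p = 0.0743), and STM of −0.39 ± 0.16 and −0.33 ± 0.16 (SE, adjusted p = 0.133 and 0.162). KNAT6, a meristem homeobox gene, had 13.4 and 11.5 CPM in WT_zeb against 7.88 and 7.50 CPM in WT_ctrl, without a call by edgeR. For this comparison the authors' deposited log2 change was 0.72 for KNAT6 (their adjusted p = 0.051) and −0.29 for SOC1 (their adjusted p = 0.556). The authors called neither. KNAT6 was called higher with SOC1 for zebularine in nse4a-2 (0.74 ± 0.15, log2, SE, adjusted p = 0.0115) and between genotypes in zebularine (0.87 ± 0.15, adjusted p = 0.00352), and also in control medium (0.83 ± 0.16, adjusted p = 0.0263). The first of these was lost without nse4a-2_ctrl replicate 1 or nse4a-2_zeb replicate 2 (0.0724 to 0.105), the libraries on which the SOC1 call depends, and the last without either WT_ctrl library or nse4a-2_ctrl replicate 2 (0.108 to 0.144).

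Transcripts of leaf photosynthesis also varied between libraries. The 9 leaf photosynthesis markers summed to 10888 and 9474 CPM in nse4a-2_zeb, 6598 and 7965 CPM in nse4a-2_ctrl, 7897 and 11008 CPM in WT_zeb, and 8459 and 6863 CPM in WT_ctrl. Under zebularine in nse4a-2, 4 of 9 were called higher, against 8.94% of all genes, and the log2 changes of the 9 ran from 0.18 to 2.24 (LHCB2.1). Under zebularine in wild type, 1 of 9, LHCB2.1, was called higher by edgeR (1.40) and 4 by DESeq2. There edgeR called 1.66% of all genes higher. That LHCB2.1 call was lost without WT_ctrl replicate 1 (adjusted p = 0.0725). In control medium LHCB2.1 was called lower in the mutant (−1.01), a call lost without WT_ctrl replicate 1 or nse4a-2_ctrl replicate 2. Between genotypes in zebularine 0 of 9 were called by edgeR or DESeq2 and 0 had an unadjusted p below 0.05. In that comparison 22.0% of all genes were called. Of the 4 called under zebularine in nse4a-2, RCA and PSBO2 lost their calls without some single libraries (adjusted p 0.0556 to 0.207). The 5 phloem markers summed to 144 and 145 CPM in nse4a-2_zeb, 121 and 113 CPM in nse4a-2_ctrl, 113 and 128 CPM in WT_zeb, and 114 and 108 CPM in WT_ctrl, with 1 of 5, SUC2, called higher in nse4a-2_zeb than in WT_zeb (0.55 ± 0.16, log2, SE, adjusted p = 0.0334), where 12.9% of all genes were called higher. The SUC2 difference was 0.33 without WT_zeb replicate 1 and 0.80 without WT_zeb replicate 2, and SUC2 lost its call without WT_zeb replicate 1 or either nse4a-2_zeb library (0.105 to 0.184). The 5 root markers summed to 0.245 to 4.52 CPM over the 8 libraries, and they did not move together. COBL9 was called higher with SOC1 in both comparisons (3.93 ± 0.62 and 4.45 ± 0.63, log2, SE, adjusted p = 0.00362 and 0.00125), but it passed the filter on low counts only through nse4a-2_zeb, where it is high. PRP3 had 2 and 3 reads in nse4a-2_zeb against 22 and 9 reads in nse4a-2_ctrl (−2.64 ± 1.11, SE, adjusted p = 0.148), and RHD6 and EXPA7 had 0 reads in nse4a-2_zeb. The part of leaf, phloem, root or meristem content in the SOC1 differences was not tested.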

How the data were processed

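Poly(A) RNA of 8 libraries, 2 biological replicates in each of 4 groups per the file headers, was read as single ends. The series lists 1 sample per group. The raw read count per gene was made by the authors, without normalization per the file headers, and the FPKM of each replicate was computed by the authors, as deposited. The submitters' processing notes name TAIR10, TopHat2 and Cuffdiff. The counting tool, annotation and strand setting are not given in the sources used here. The log2 fold change and adjusted p-value of 3 comparisons are the authors', as deposited. Of 32399 genes listed, 43 lack values and 8190 are at 0 in each library. The remaining 8 per-sample columns (group means and SDs of FPKM) were not used.

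The 9 genes and all lists were chosen with earlier results of these data known. Raw counts were filtered with filterByExpr (19682 genes left), scaled by TMM (factors 0.957 to 1.03) and fitted in a single model with a coefficient per group, in edgeR 4.0.16 (R 4.3.3). The model tested 5 contrasts with 2-sided quasi-likelihood tests and Benjamini-Hochberg adjustment over all genes, and called a gene at an adjusted p below 0.05. The SE is the size of the log2 fold change divided by the square root of F. The common biological coefficient of variation was 13.4%. The procedure was tested on simulated data for zebularine in nse4a-2.

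The alternatives were DESeq2 1.42.0, its size factors (RLE), no low-count filter, the replicate number as a block, limma 3.58.1 on log2(FPKM + 1) for genes with a mean FPKM of at least 1, and 8 fits that each left out 1 library. Deviations of same-numbered libraries from group means correlated between groups at r of −0.086 to 0.234, and the headers do not pair replicates, so the model had no term for the number. Of each list up to 4 called genes with the largest change were named, or the gene with the smallest p where none was called, and for tested members up to 3 genes of most similar pattern among genes with a mean of at least 1 CPM (log2 CPM with a prior count of 2). Promoter windows came from the TAIR10.1 genome and annotation by locus tag, with Python 3.11.15 and pysam 0.24.0, and no coordinates of the deposited files were used. Genes with reads numbered 21682 to 22169 per library. Intervals and floors on reads cover only counting error, because the libraries carry no molecular identifiers.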

Additional observations from a re-analysis of the deposited data

Results flagged for a closer look

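COBL9, a root hair gene among the root markers, differed in its zebularine response between the genotypes by the test of that difference. It had 2.41 and 3.52 CPM in nse4a-2_zeb, 0.254 and 0.124 CPM in nse4a-2_ctrl, 0.196 and 0.0547 CPM in WT_zeb, and 0.330 and 0.641 CPM in WT_ctrl. The response in nse4a-2 exceeded that in wild type by 5.77 ± 0.99 log2 units (SE, adjusted p = 0.0362 by edgeR's quasi-likelihood test). COBL9 had 38 and 61 reads in nse4a-2_zeb and 1 to 10 in each other library, so it passed the filter on low counts only through the group where it is high. The call was lost in all 8 fits that left out 1 library, with differences of 5.20 to 6.89 and adjusted p of 0.0556 to 0.138. The 5 root markers, COBL9 included, summed to 2.60 and 3.69 CPM in nse4a-2_zeb, 2.35 and 1.11 CPM in nse4a-2_ctrl, 0.245 and 1.26 CPM in WT_zeb, and 4.52 and 3.01 CPM in WT_ctrl.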

How the results depend on the processing

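No member changed sign with a call under any of the 13 alternatives, and SOC1 between genotypes in zebularine kept its call in all of them. With the replicate block, 2 members were called for zebularine in nse4a-2, AGL24 beside SOC1, in place of 1. For the difference of responses 1 member, SOC1, was called with DESeq2, without the low-count filter and with the replicate block, in place of 0. Leaving out 1 library gave 0 to 2 members for zebularine in nse4a-2, 0 to 1 for the difference, and no change of the count in the other comparisons (0, 1 and 0).

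Counts over all genes moved more. For zebularine in wild type they were 886 with DESeq2, 1127 without the filter, 955 with the replicate block and 276 with limma on FPKM, in place of 452. Between genotypes in control medium they were 987, 1297 and 1159 under the first 3 of these, in place of 617, and for the difference of responses 496, 577 and 456, in place of 152. Leaving out 1 library gave 713 to 3002 genes for zebularine in nse4a-2, 23 to 526 in wild type, 1775 to 4829 between genotypes in zebularine, 130 to 823 in control medium and 5 to 230 for the difference. The lowest of these came without nse4a-2_zeb replicate 2 in the comparisons with nse4a-2_zeb and without WT_ctrl replicate 1 in the others. For the 92 other flowering genes the ranges were 1 to 7, 0 to 4, 6 to 13, 1 to 6 and 0 to 2, in place of 5, 2, 10, 3 and 0. Without the filter 4 were called for zebularine in wild type, 6 between genotypes in control medium and 4 for the difference. The cause of these shifts was not tested. A fit that leaves a group with 1 library assumes that it varies like the other groups.

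The same-numbered libraries share only a number, and the block changed no other call of a member. With 2 libraries a group, edgeR's tests weigh each difference against a spread estimated from these 8 libraries together, with information shared across genes. The p-values speak for these samples only. FUL and LFY rest on few reads and have intervals that span changes in both directions, and FT and AP1 were too scarce to test.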
